A study of Mus musculus with 9 samples.

Results

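Genes of fat storage and fatty acid desaturation were followed through single mouse hearts. The set held 6 genes known from adipocytes (Adipoq, Plin1, Cfd, Retn, Cidec and Fabp4) and 3 stearoyl-CoA desaturases (Scd1, Scd2 and Scd4), 9 of the 54532 genes in the count table. All 9 were found by symbol and all were read in each of the 9 libraries. They were selected on values in these same libraries. Adipocyte genes had stood out in the library labelled MIRI 2, and Scd4 had been called lower in GXNI than in MIRI mice. Their levels and fold changes are therefore a description and carry no p-value.

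The heart RNA was from male C57BL/6J mice of wild-type genotype, 8 to 10 weeks old, with 3 mice in each of 3 groups. Sham mice had the chest opened and a suture passed around the left anterior descending coronary artery without tying it. MIRI (myocardial ischemia/reperfusion injury) mice had that artery tied for 30 min, followed by 24 h of reperfusion, and received saline. GXNI mice had the same injury and received Guanxinning injection, a preparation of Danshen and Chuanxiong, at 9 mL/kg. Saline or drug went into the tail vein of all groups, in the injured mice during ischemia, and only this dose is analysed here. The part of the heart that was taken is not given in the sources used here, and the labels name both heart tissue and cardiomyocytes.

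Adipocytes store triglyceride in a droplet coated by perilipin 1 and secrete proteins such as adiponectin, adipsin and, in mice, resistin. Some fat lies on the surface of the heart, next to the myocardium. Stearoyl-CoA desaturases sit in the endoplasmic reticulum and place a double bond in saturated fatty acids, turning stearate into oleate. The mouse has several such genes in a row, and Scd4 is known as the one expressed mainly in the heart.

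The 9 libraries held 17119454 to 22811295 counts, so that 3 counts equal 0.132 to 0.175 counts scaled to the library total (CPM). Cardiomyocyte markers (8 genes such as Myh6 and Tnnt2) summed to 29163 to 46161 normalized CPM. Endothelial markers summed to 664 to 1280 and fibroblast markers to 450 to 964 CPM, so RNA of these cells was also present. In bulk tissue, fewer cells of a type and less RNA per cell cannot be told apart. By Spearman correlation over 15207 genes, none of the 6 MIRI and GXNI libraries was most like a library of its own group. The library labelled MIRI 2 was most like GXNI 1 (0.982), and the library labelled GXNI 3 was most like MIRI 3 (0.987). Neutrophil markers (10 genes such as S100a8) summed to 230 CPM in MIRI 2 against 1006 and 711 CPM in MIRI 1 and 3. They summed to 153 to 202 CPM in sham and 624 to 704 CPM in GXNI mice. With MIRI 2 and GXNI 3 left out, edgeR called 228 genes higher and 520 lower in GXNI than in MIRI mice, against 0 and 3 with all libraries. Whether these 2 labels were exchanged was not tested. The groups follow the deposited labels, and values without these libraries are given where a result rests on them.

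Scd4, the cardiac desaturase, was high in the MIRI hearts and low in the sham and GXNI hearts. Normalized CPM was 7.68, 8.71 and 6.82 in sham mice 1 to 3. It was 30.1, 27.0 and 18.5 in MIRI mice and 12.1, 6.75 and 12.4 in GXNI mice. Every MIRI heart lay above every sham and every GXNI heart, whereas GXNI and sham hearts overlapped. The mean was 7.74 ± 0.948 CPM in sham, 25.2 ± 5.97 in MIRI and 10.4 ± 3.18 in GXNI mice (SD, n = 3). Compared with sham, Scd4 was 3.26-fold higher in MIRI mice, a log2 fold change of 1.71 ± 0.22 (SE). Compared with MIRI, GXNI mice were 2.41-fold lower, with a log2 fold change of -1.27 ± 0.31. GXNI against sham gave 0.44 ± 0.27.

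The lack of overlap between GXNI and MIRI hearts holds for the deposited labels only. If the labels MIRI 2 and GXNI 3 were exchanged, the MIRI hearts would have 30.1, 12.4 and 18.5 CPM and the GXNI hearts 12.1, 6.75 and 27.0 CPM, and the groups would overlap. Since Scd4 was selected for its difference under the deposited labels, its values say nothing about which labels are right. Without both libraries, the log2 fold change of GXNI against MIRI was -1.36 ± 0.37. With each mouse left out in turn it went from -1.45 (without MIRI 3) to -1.03 (without GXNI 2), and that of MIRI against sham from 1.56 to 1.88. MIRI 2 had a neutrophil marker sum near the sham hearts while its Scd4 was 27.0 CPM, and GXNI 1 and 2 had sums of 624 and 638 CPM with Scd4 at 12.1 and 6.75 CPM. In these hearts 2 to 3 of the 10 neutrophil markers had 3 counts or fewer, and the part of neutrophils in the Scd4 values was not tested. Atrial markers (7 genes such as Nppa) summed to 64.4 to 103.5 CPM in sham, 272, 208 and 680 in MIRI, and 89.3, 112 and 745 in GXNI hearts, with 1 to 3 of the 7 at 3 counts or fewer. Like Scd4, their sum was higher in every MIRI heart than in any sham heart, but GXNI 3 had the highest sum of all. Of 5 atrial markers tested in MIRI against sham, 1 was called higher, namely Nppa, where 6.15% of all genes were. The sum can be led by 1 gene and does not by itself measure the amount of atrial tissue. The part of atrial tissue in the Scd4 values was not tested.

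**Figure D1:**
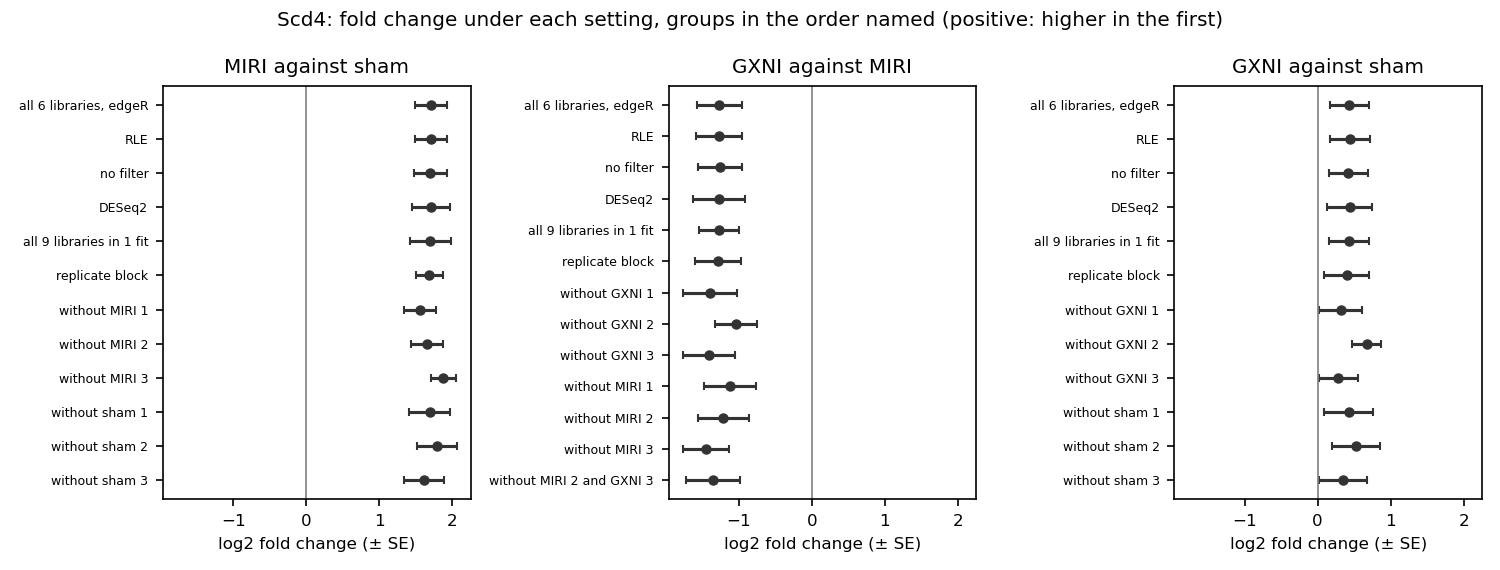
Log2 fold change of Scd4 (x axis, ± SE) under each setting of the fit (y axis) for the 3 comparisons. All MIRI against sham points lie between 1.56 and 1.88 and all GXNI against MIRI points between -1.45 and -1.03, while GXNI against sham stays between 0.29 and 0.67.

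A call required a 1.5-fold change or more together with an unadjusted p of 0.01 or less in the quasi-likelihood test of edgeR. Of the 9 genes, 5 passed the low-count filter in each comparison, namely Cfd, Fabp4, Scd1, Scd2 and Scd4. In MIRI against sham, 1 of them, Scd4, was called higher, where 6.15% of 14644 genes were, and 0 lower, where 2.82% were. In GXNI against MIRI, 0 were called higher, where 0% of 14762 genes were, and 1, Scd4, lower, where 0.0203% (3 genes) were. In GXNI against sham 0 were called, where 2.67% of 14695 genes were higher and 1.54% lower. Since Scd4 was chosen for its call, nothing is read from these counts. After Benjamini-Hochberg adjustment, Scd4 was not called in either comparison, and 2, 0 and 0 genes of the whole table passed 0.05. The Scd4 call in GXNI against MIRI was made in 7 of 13 alternatives. It was lost, among others, with adjustment, without GXNI 2, without MIRI 1, without MIRI 2, and without MIRI 2 and GXNI 3 together. For MIRI against sham it was made in 11 of 12 alternatives, the exception being adjustment.

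Scd1, the main desaturase of fat and liver, set 1 heart apart. Normalized CPM was 15.3, 14.6 and 11.4 in sham mice, 15.7, 30.6 and 14.9 in MIRI mice, and 18.9, 15.3 and 12.9 in GXNI mice. The library labelled MIRI 2 was above the other 8, which overlapped across groups. The log2 fold change of MIRI against sham was 0.57 ± 0.30 with all mice and 0.16 ± 0.16 without MIRI 2. GXNI against MIRI gave -0.37 ± 0.33, and 0.05 ± 0.24 without MIRI 2. The difference between sham and MIRI in Scd1 therefore rested on the library labelled MIRI 2.

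Scd2, a desaturase widely expressed outside the liver, was lowest in GXNI 3. It had 21.9, 34.3 and 27.2 CPM in sham mice, 20.1, 38.1 and 26.9 CPM in MIRI mice, and 20.1, 20.1 and 13.0 CPM in GXNI mice. Sham and MIRI hearts covered nearly the same range (log2 fold change 0.03 ± 0.27). All GXNI hearts lay below all sham hearts (-0.64 ± 0.24), without a call. Without GXNI 3 this value was -0.46 ± 0.20. The separation holds for the deposited labels only. If MIRI 2 and GXNI 3 were exchanged, GXNI would hold the heart with 38.1 CPM and overlap sham. For GXNI against MIRI the value was -0.67 ± 0.30, which became -0.21 ± 0.21 without MIRI 2 and GXNI 3. Without MIRI 2, the value of MIRI against sham was -0.24 ± 0.21. Scd3, the remaining gene of the cluster, had 0 to 7 counts in every library and was not tested.

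**Figure D2:**
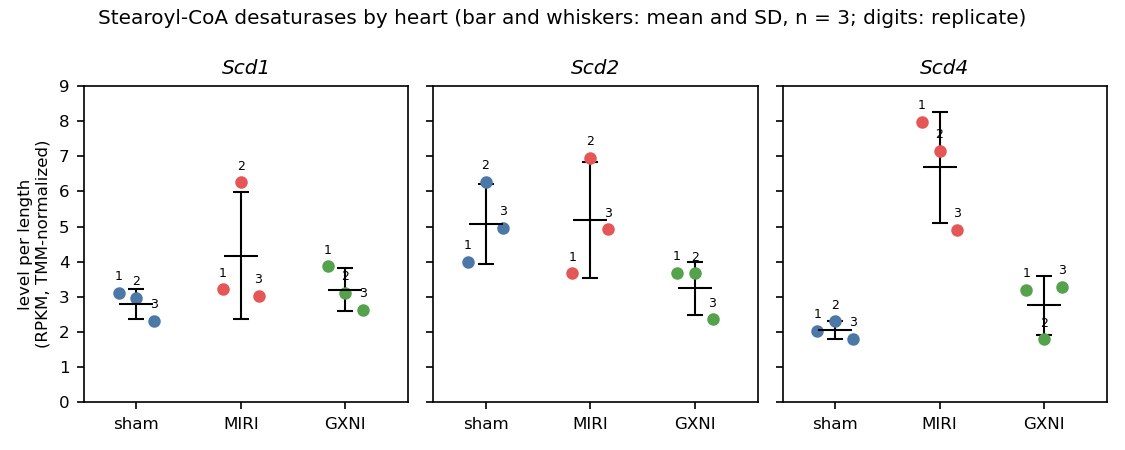
Level per length (y axis, CPM per kilobase of exon, RPKM) of Scd1, Scd2 and Scd4 in each heart, by group; digits give the replicate, and the bar and whiskers the mean and SD of 3 mice. Scd4 in MIRI hearts lies between 4.92 and 7.98, above the 1.79 to 3.30 of the other 6 hearts, and Scd1 is highest in MIRI 2 at 6.26.

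Per kilobase of exon, the group means of the desaturases had the same order in sham and GXNI hearts, but single GXNI hearts differed. Of their summed level, Scd1 held 35.9% and Scd2 34.2% in GXNI 1, and Scd4 held the most in GXNI 3. In sham hearts Scd2 led with 5.08 ± 1.14 RPKM, followed by Scd1 with 2.80 ± 0.425 and Scd4 with 2.05 ± 0.252 (SD, n = 3). In MIRI hearts Scd4 had the highest mean with 6.68 ± 1.58 RPKM, then Scd2 with 5.19 ± 1.66 and Scd1 with 4.17 ± 1.81. In GXNI hearts the means of Scd2 (3.24 ± 0.757), Scd1 (3.21 ± 0.622) and Scd4 (2.77 ± 0.845) were close. These SDs are between hearts and do not measure differences between genes of 1 heart. Within a heart, the ratio of Scd1 to Scd2 was 0.875, 0.899 and 0.617 in MIRI and 1.05, 0.849 and 1.11 in GXNI hearts. That of Scd4 to Scd2 was 2.17, 1.03 and 0.998 in MIRI and 0.871, 0.487 and 1.39 in GXNI hearts. Scd4 held 22.1%, 20% and 19.8% of the summed level of Scd1 to Scd4 in sham hearts. Its share was 53.7%, 35.1% and 38.1% in MIRI hearts and 29.8%, 20.6% and 39.7% in GXNI hearts. All MIRI shares exceeded all sham shares, but GXNI 3 exceeded MIRI 2 and 3. The ratio of Scd4 to Scd1 in the same library needs no scaling between libraries. It was 0.654 to 0.780 in sham, 2.48, 1.14 and 1.62 in MIRI, and 0.829, 0.574 and 1.25 in GXNI hearts. On this ratio MIRI hearts lay above sham hearts, while GXNI 3 lay above MIRI 2. The summed level was 9.16 to 11.6 RPKM in sham, 12.9 to 20.4 in MIRI and 8.30 to 10.8 in GXNI hearts. On this sum the MIRI hearts did not overlap either other group. The share, the ratios with Scd4 and the sum all contain Scd4, which was selected on its values, so they are not separate evidence. Taken singly, Scd1 and Scd2 overlapped between the MIRI hearts and both other groups.

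**Figure D3:**
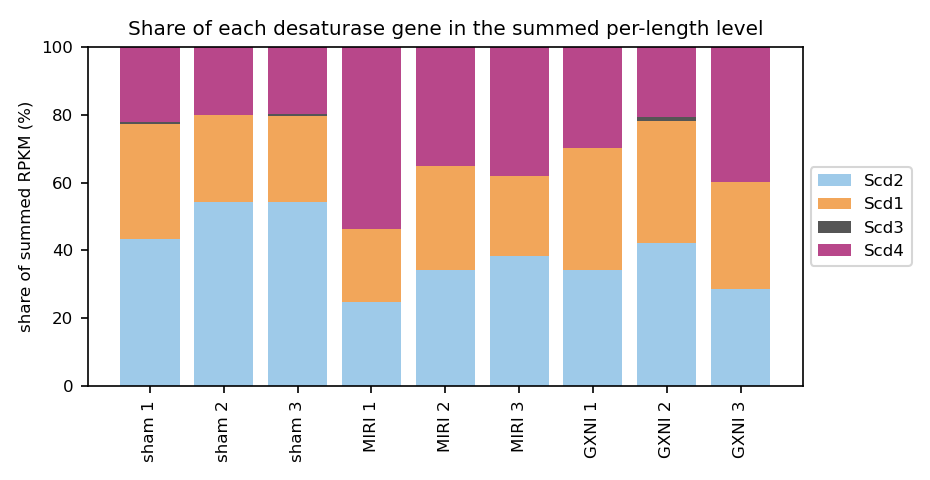
Stacked bars of the share (y axis, percent) of Scd1, Scd2, Scd3 and Scd4 in their summed RPKM in each of the 9 hearts (x axis). Scd4 takes 19.8% to 22.1% in sham, 35.1% to 53.7% in MIRI and 20.6% to 39.7% in GXNI hearts.

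The desaturase genes lie side by side on chromosome 19 (GRCm38, GENCODE M21 annotation) and are close relatives, which bears on how reads were assigned. Scd3 spans 44203269 to 44244016, Scd2 44293674 to 44306864 and Scd4 44333092 to 44346743 on the forward strand, and Scd1 spans 44394455 to 44407879 on the reverse strand. Scd4 overlaps no other annotated gene, and the exons of Scd2 overlap Mir5114. The coding sequence of Scd4 (1059 bases) was 85.15% identical to that of Scd1, 83.95% to Scd2 and 84.61% to Scd3, whereas Scd1 and Scd3 were 91.46% identical. Of the distinct 50-base stretches in the transcripts of Scd4, 3.01% also occurred in another gene of the cluster. The share was 4.56% for Scd1, 3.75% for Scd2 and 6.26% for Scd3. For longer stretches of Scd4 it fell to 1.62% at 75 bases and 0.463% at 100 bases. The longest shared run of Scd4 was 116 bases, with Scd1. How the authors counted reads that match several genes is not given in the sources used here.

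The first stretch of 60 coding bases below, which joins exons 4 and 5, is the only 1 of 298 compared windows that was identical in all 4 genes. A read that lies fully within it cannot tell them apart. In Scd4 it spans chr19:44339066-44341230 on the forward strand and in Scd1 chr19:44400365-44401742 on the reverse strand, introns included.
Scd1, Scd2, Scd3 and Scd4: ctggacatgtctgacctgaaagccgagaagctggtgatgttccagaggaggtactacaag

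The second stretch of 60 bases, across exons 2 and 3, is the least alike window and shows what separates the genes. Capitals mark the 31 positions at which not all 4 genes agree. It spans chr19:44403240-44406490 in Scd1 (reverse strand), chr19:44295183-44298095 in Scd2, chr19:44215681-44234278 in Scd3 and chr19:44334258-44337556 in Scd4 (forward strand), introns included.
Scd1: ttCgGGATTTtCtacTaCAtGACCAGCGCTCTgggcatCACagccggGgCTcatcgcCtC
Scd2: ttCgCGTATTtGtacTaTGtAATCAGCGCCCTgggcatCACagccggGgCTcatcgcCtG
Scd3: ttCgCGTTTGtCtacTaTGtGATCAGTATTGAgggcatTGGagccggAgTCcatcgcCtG
Scd4: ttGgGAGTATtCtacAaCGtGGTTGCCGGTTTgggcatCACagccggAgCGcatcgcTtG
In this window Scd4 differed from Scd1 at 17, from Scd2 at 20 and from Scd3 at 23 positions.

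Fabp4, a fatty acid binding protein of adipocytes that capillary endothelium also makes, was abundant in every heart and lower in both injured groups. Its normalized CPM was 504, 659 and 583 in sham mice, 429, 460 and 431 in MIRI mice, and 463, 416 and 457 in GXNI mice. All 6 injured hearts lay below all 3 sham hearts, and the MIRI and GXNI hearts overlapped. The log2 fold change was -0.40 ± 0.15 in MIRI against sham, -0.38 ± 0.14 in GXNI against sham and 0.03 ± 0.16 in GXNI against MIRI. Fabp4 was not called in any comparison, and the change was under 1.5-fold. How many of all genes separate sham from injured hearts in this way was not counted. Endothelial markers (9 genes such as Pecam1 and Cdh5, each over 3 counts in every library) overlapped between the groups, with sums of 664 to 943 CPM in sham, 718 to 1147 in MIRI and 765 to 1280 in GXNI hearts. The ratio of Fabp4 to that sum was 0.674 to 0.760 in sham, 0.465, 0.642 and 0.376 in MIRI, and 0.606, 0.540 and 0.357 in GXNI hearts. Sham and injured hearts did not overlap on it, but the ratio contains Fabp4 and is not separate evidence. Fabp4 lies on chromosome 3 from 10204088 to 10208576 on the reverse strand, and its annotated exons together cover all 4489 bases of the gene, so its level per length is a low estimate.

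Per length, Fabp4 had 92.6 to 147 RPKM. Fabp3, the binding protein of cardiac muscle, had 2484 to 4646 RPKM and Fabp5 6.74 to 9.76 RPKM. The other Fabp genes (Fabp1, Fabp2, Fabp6, Fabp7 and Fabp9) had at most 23 counts in a library. Neither Fabp3 nor Fabp5 was called in any comparison.

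**Figure D4:**
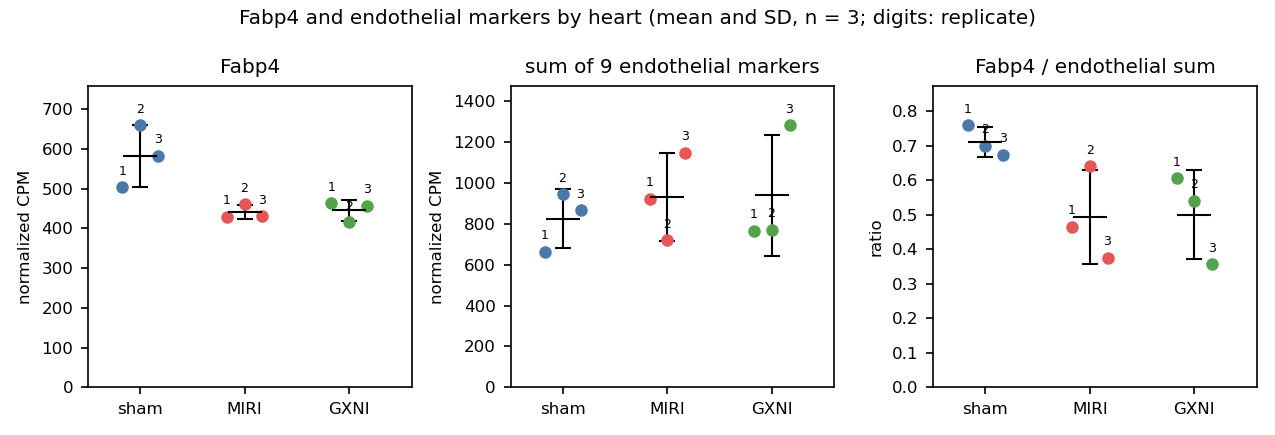
Fabp4 (left), the sum of 9 endothelial markers (middle), both in normalized CPM, and their ratio (right) in each heart by group, with the mean and SD of 3 mice. Sham hearts have 504 to 659 CPM of Fabp4 and a ratio of 0.674 to 0.760, above the 416 to 463 CPM and the 0.357 to 0.642 of the 6 injured hearts.

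The other adipocyte genes were close to the detection limit in most hearts and clearly above it mainly in the library labelled MIRI 2. Adipoq, which encodes adiponectin and is the defining adipocyte transcript, had 2, 0 and 0 counts in sham, 2, 3 and 0 in MIRI, and 2, 0 and 3 in GXNI mice. Its 3 counts in MIRI 2 equal 0.178 CPM (exact Poisson 95% interval 0.0367 to 0.521), and no difference was detectable at this depth. Plin1, the perilipin that coats the adipocyte droplet, had 1, 0 and 1 counts in sham, 2, 28 and 1 in MIRI, and 2, 6 and 0 in GXNI mice. Cidec, which promotes droplet fusion, had 1, 0 and 0, then 5, 29 and 0, then 1, 4 and 0 counts. For both droplet genes MIRI 2 was the highest heart, and the other 8 hearts had at most 6 counts.

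Among the secreted proteins, Cfd, the complement factor adipsin, had 1, 0 and 10 counts in sham, 19, 62 and 4 in MIRI, and 2, 20 and 9 in GXNI mice. Retn, which encodes resistin, had 2, 0 and 0 counts in sham, 5, 13 and 1 in MIRI, and 1 in each GXNI mouse. MIRI 2 was highest for both, and the MIRI hearts spread widely.

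The summed counts of these 5 genes were 7, 0 and 11 in sham, 33, 135 and 6 in MIRI, and 8, 31 and 13 in GXNI mice. In MIRI 2 this was 8.02 CPM (exact Poisson 95% interval 6.72 to 9.49). The next hearts, MIRI 1 and GXNI 2, had 1.55 CPM (1.06 to 2.17) and 1.53 CPM (1.04 to 2.17), and the other 6 had 0 to 0.755 CPM. These intervals cover counting error only and not the spread between mice. The groups overlapped for every one of the 5 genes.

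**Figure D5:**
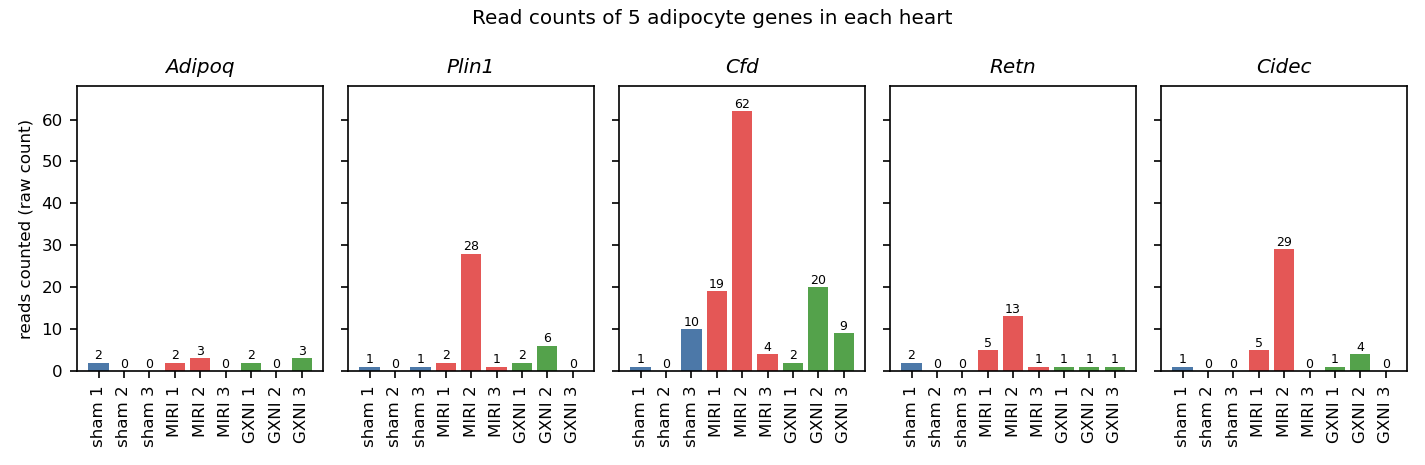
Raw read counts (y axis) of Adipoq, Plin1, Cfd, Retn and Cidec in each of the 9 hearts (x axis), with the count above each bar. MIRI 2 has 28 counts of Plin1, 62 of Cfd, 13 of Retn and 29 of Cidec, while Adipoq stays at 3 or fewer in all hearts.

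Ratios against MIRI mice moved with the library labelled MIRI 2 for Plin1, Cidec, Retn and Cfd. In MIRI against sham, the ratio of summed counts per depth was 14.5 for Plin1 (95% counting interval 3.69 to 125.1) and 1.93 (0.222 to 23.2) without MIRI 2. For Cidec it was 31.8 (5.34 to 1294) and 6.45 (0.721 to 304.8) without it. For Retn it was 8.89 (2.15 to 78.7) and 3.87 (0.692 to 39.2) without it. For Cfd it was 7.23 (3.85 to 15.04) and 2.695 (1.26 to 6.12) without it. In GXNI against MIRI, the ratio was 0.276 for Plin1 (0.110 to 0.614), 0.157 for Cidec (0.0480 to 0.404), 0.169 for Retn (0.0320 to 0.573) and 0.390 for Cfd (0.250 to 0.595). Without MIRI 2 these became 2.07, 0.776, 0.388 and 1.05, each with a counting interval that included 1. GXNI against sham, which holds no MIRI library, gave 4.003 for Plin1 (0.799 to 38.7), 5.004 for Cidec (0.560 to 236.7), 1.501 for Retn (0.172 to 17.97) and 2.82 for Cfd (1.38 to 6.22). Of these 4 counting intervals, that of Cfd excluded 1, but it covers counting error only and not the spread between mice. The fit, which includes that spread, gave Cfd a log2 fold change of 1.46 ± 1.17 in GXNI against sham, without a call. Without GXNI 2 it was 0.65 ± 1.40. Only Cfd passed the low-count filter, with a log2 fold change of 2.96 ± 1.34 for MIRI against sham mice and of -1.53 ± 1.14 for GXNI against MIRI mice. The first of these went from 1.42 without MIRI 2 to 5.60 without sham 3, and the second became 0.03 without MIRI 2.

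Further genes of white fat from a list of 28 were set beside these. Only Car3 and Pck1 had at most 3 counts in every sham library and over 3 in another. Car3, a carbonic anhydrase of fat and skeletal muscle, had 0, 0 and 1 counts in sham, 5, 66 and 0 in MIRI, and 3, 24 and 3 in GXNI mice. Pck1, an enzyme of glyceroneogenesis, had 27 counts in MIRI 2 and at most 3 in the other 8 hearts. Both were highest in MIRI 2, and both were named after their values were seen. Of all 2116 genes that met this count rule, 8.32% were highest in MIRI 2. Pnpla2, Gpd1 and Mrap of the list were also highest in MIRI 2 by normalized CPM. So were Lep, Acvr1c and Lgals12, with at most 3 counts in any heart. Of all genes with a count, 11.2% were highest in MIRI 2. Other genes of the list went the other way. Cebpa had 100 counts in MIRI 2 and 164 to 338 elsewhere, and Nnat had 10 and 19 to 64. Others, such as Plin4, Lipe, Lpl, Agpat2 and Aqp7, were highest in a sham heart. Lep, which encodes leptin, had 0 to 3 counts, and Ucp1, the uncoupling protein of brown fat, 0 to 2. Skeletal muscle markers summed to 1.54 CPM in MIRI 2 and 0.755 to 2.65 CPM in the other hearts, with 4 of 6 at 3 counts or fewer in MIRI 2. Mesothelial markers, genes of the epicardial surface, summed to 12.5 CPM in MIRI 2 and 8.94 to 76.1 CPM elsewhere. Scd1 was also highest in MIRI 2. The part of adipocyte RNA in that value was not tested.

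Around the desaturases, 23 of 25 listed genes of fatty acid synthesis and desaturation were tested in MIRI against sham, with 1 called higher and 2 lower, where 6.15% and 2.82% of all genes were. Their median log2 fold change was 0.07 against 0.00 over all genes. Fads3, a member of the fatty acid desaturase family, was higher with 64.5 ± 4.60 CPM in sham and 140.3 ± 18.4 in MIRI mice (log2 fold change 1.13 ± 0.15, adjusted p = 0.0607, edgeR). Mlxipl, the carbohydrate-responsive transcription factor ChREBP, was lower with 23.5 ± 3.98 and 10.4 ± 4.19 CPM (-1.18 ± 0.29, adjusted p = 0.0869, edgeR). Insig1, which retains SREBP in the endoplasmic reticulum, was lower with 25.7 ± 3.44 and 14.3 ± 3.89 CPM (-0.84 ± 0.23, adjusted p = 0.0953, edgeR). In GXNI against sham, Insig1 was again called lower (-0.78 ± 0.17) and the elongase Elovl1 higher (0.69 ± 0.19), both with an adjusted p of 0.219 in edgeR. Elovl1 had near-equal means in MIRI (27.4 ± 7.61 CPM) and GXNI mice (27.8 ± 5.87 CPM). The most abundant gene of the list, Acacb, an acetyl-CoA carboxylase, had 408 ± 46.5 CPM in sham and 234 ± 122 in MIRI mice and was not called.

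Lipid droplet genes outside the adipocyte set gave 2 called higher and 1 lower of 14 tested in MIRI against sham, where 6.15% and 2.82% of all genes were. Hilpda, an inhibitor of lipolysis that hypoxia induces, had 2.98 ± 0.368 CPM in sham, 32.9 ± 29.9 in MIRI and 25.8 ± 33.7 in GXNI mice. Dgat1, which makes triglyceride, had 16.1 ± 0.920 CPM in sham and 24.1 ± 3.74 in MIRI mice. Plin3 was called lower, with 165.8 ± 21.1 CPM in sham and 79.3 ± 18.9 in MIRI mice (-1.06 ± 0.20, adjusted p = 0.0662, edgeR). It was also called lower in GXNI against sham (-0.99 ± 0.23), as was Hsd17b11 (-0.69 ± 0.18). Hsd17b11 had similar means in MIRI (26.5 ± 7.06 CPM) and GXNI mice (24.9 ± 4.52 CPM). Plin2, the droplet coat of most tissues, had 71.9 ± 19.4, 160.1 ± 74.6 and 157.8 ± 60.1 CPM in the 3 groups and was not called.

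Of the 28 other white fat genes, 21 were tested in MIRI against sham, with 1 called higher and 3 lower, where 6.15% and 2.82% of all genes were. The median log2 fold change was -0.56 over these 21, and 0.002 over all 28 with DESeq2, which applied no such filter. Gpd1, glycerol-3-phosphate dehydrogenase, was higher (76.7 ± 9.17 against 119 ± 13.1 CPM), and Thrsp (29.6 ± 5.16 against 16.03 ± 1.61 CPM), Slc36a2 and Adig were lower. Many genes of this list are also cardiac, and Lpl, the lipoprotein lipase, had 6308 ± 478 CPM in sham hearts. Dgat2 was called lower in GXNI against sham (428 ± 20.9 CPM in sham and 204 ± 68.4 in GXNI mice). In MIRI mice it had a like mean of 204.4 ± 111.1 CPM, which edgeR did not call against sham and DESeq2 called lower. Of the brown fat genes, 1 of 8 tested was called higher, where 6.15% of all genes were, namely Gk, a glycerol kinase, with 35.5 ± 2.93 CPM in sham and 55.7 ± 8.58 in MIRI mice. Of the adipokine partners 0 of 9 were called in MIRI against sham, where 6.15% of all genes were higher and 2.82% lower. An unadjusted p under 0.05 in edgeR was reached by 3 of the 9, and by 4149 of all 14644 genes. DESeq2 called 1 higher and 1 lower of 10, and 1491 higher and 760 lower over all genes. The adiponectin receptor Adipor1 had 189 ± 3.70, 186.2 ± 18.2 and 182.4 ± 6.49 CPM in the 3 groups.

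Over the 6 lists together, 77 genes were tested in MIRI against sham, with 5 called higher and 6 lower, where 6.15% and 2.82% of 14644 genes were. Among the 77, 23 had an unadjusted p under 0.05 in edgeR, where 4149 of the 14644 genes did. Without MIRI 2, 12 were called higher and 19 lower of 78, where 16.9% and 13.3% of 15207 genes were. In GXNI against MIRI, edgeR and DESeq2 each called 0 genes of the 6 lists, and 0 had an unadjusted p under 0.05 with either. Over all genes, edgeR gave 47 at an unadjusted p under 0.05. Without MIRI 2 and GXNI 3, edgeR called 3 higher (Dgat2, Mlxipl and Ppargc1a) and 3 lower (Acly, Hilpda and Retnlg) of 78, where 1.52% and 3.47% of 14984 genes were. In GXNI against sham, 1 was called higher and 4 lower of 77, where 2.67% and 1.54% of 14695 genes were.

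The genes most like each pattern were found by Pearson correlation of log2(CPM + 0.5) over the 9 libraries, among 13423 genes with a mean of at least 1 CPM. The values share libraries and depth, and r is given as a description. Elmo3 (0.93), Fibp (0.92), Gm5884 (0.88), Gm4786 (0.87) and Amot (0.87) were most like Scd4. Without MIRI 2 their r was 0.83 to 0.91. Amot, which encodes angiomotin, had 9.29 to 10.7 CPM in sham, 18.9 to 23.4 in MIRI and 11.6 to 14.4 in GXNI hearts, so its MIRI hearts also lay above all others. Ralgapa2 (0.89), Slco3a1, Sync, Castor1 and Glud1 (0.87) were most like Scd1. Without MIRI 2, r fell to between 0.45 and 0.67 for these genes except Castor1, at 0.96. Rccd1 (0.90), Zfp27, Chd4 and BC034090 (0.88) were among those most like the summed adipocyte genes, and their r was 0.57 to 0.77 without MIRI 2. Chd4, a chromatin remodeler, had 139.7 to 160.7 CPM in 8 hearts and 180.3 in MIRI 2.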

How the data were processed

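RNA-seq read counts of 9 mouse hearts (3 sham, 3 MIRI, 3 GXNI) were used. After discarding reads with adapter or poly-N sequence and those of low quality, the authors aligned with HISAT2 (mm10 in the submitters' processing notes) and deposited featureCounts counts per gene, whole numbers without normalization. Versions, strand setting and read length are not given in the sources used here. Of the 54532 identifiers, 54409 matched a GENCODE M21 symbol, 123 did not, and all stayed in library totals. Columns of the authors' own fold changes and p-values were not used.

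Members and gene lists were chosen with earlier results of these data known. For each pair of groups, edgeR 4.0.16 (R 4.3.3) was run on the 6 libraries (TMM, default low-count filter, quasi-likelihood test), and genes were called at 1.5-fold and an unadjusted p of 0.01. The SE is that of the fitted log2 fold change. Normalized CPM used TMM factors over all 9 libraries, and RPKM used the union of GENCODE M21 exons. Low counts were compared by their summed ratio with an exact (Clopper-Pearson) 95% interval, with and without MIRI 2. The version without MIRI 2 was added after the values were seen. Counting intervals cover counting error only. Alternatives were DESeq2 1.42.0, RLE, no filter, all 9 libraries in 1 fit, a replicate block, adjustment and left-out libraries. The fits were tested on simulated data. Genes named are all members and Scd3, in each list the called genes and the 3 most abundant tested, and the 5 most similar genes; part of them is printed, and 1 similar gene is not reported here. Car3, Pck1, Lep, Ucp1, Mrap, Acvr1c and Lgals12 were named after their values were seen. Mice differ between groups, and p-values measure the spread between 3 hearts. The share of all genes whose groups did not overlap was not computed, so such separations are given as a description. No 2 libraries agreed within sampling noise (smallest chi-square per degree of freedom 14.4).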

Additional observations from a re-analysis of the deposited data

How the results depend on the processing

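Scd4 kept its direction in all alternatives of each comparison. Scd1 and Cfd changed sign in GXNI against MIRI without MIRI 2, and their values near 0 carry no direction, nor does that of Fabp4 in the same comparison or of Scd2 in MIRI against sham. Without TMM factors, Scd4 was 6.67 to 8.31 CPM in sham, 18.9 to 31.6 in MIRI and 7.001 to 12.5 in GXNI hearts. For MIRI against sham, genes called higher and lower were 900 and 413, with 1603 and 803 without the filter, 1491 and 760 with DESeq2, 535 and 265 with all 9 libraries in 1 fit, and 2 and 0 after adjustment. GXNI against MIRI gave 0 and 3, with 4 and 6 without the filter, 4 and 7 with DESeq2, 1 and 8 with all 9 libraries, 0 and 0 after adjustment, and 228 and 520 without MIRI 2 and GXNI 3. GXNI against sham gave 392 and 226, with 999 and 426 without the filter, 994 and 407 with DESeq2, 299 and 142 with all 9 libraries, and 0 and 0 after adjustment. With each mouse left out, these ranged from 340 to 2571 and 174 to 2021, from 0 to 8 and 0 to 9, and from 83 to 1603 and 90 to 1062. MIRI against sham was at its highest without MIRI 2, and GXNI against sham without GXNI 1. The cause was not tested. Same-numbered mice did not all deviate together. Their correlations were -0.118, 0.0576 and 0.12 between sham and MIRI, and -0.488, 0.2 and 0.766 between MIRI and GXNI. Between sham and GXNI they were 0.125, -0.0785 and 0.134. These are deviations from means of 3 hearts under the deposited labels, so they cannot decide whether the numbers pair the mice. A replicate block gave 698 and 367, 2 and 1, and 342 and 231 calls in the 3 comparisons, and Scd4 was not among the calls of GXNI against MIRI. Below 3 counts per library, 0.132 to 0.175 CPM, a difference could not be seen, which covers Adipoq and Scd3 in most hearts.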
